A study of Mus musculus with 6 samples.

Results

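The osmolyte and tonicity response genes are 10 genes by which kidney cells take up, make or answer to osmolytes: Nfat5, Akr1b3, Slc6a12, Slc5a3, Slc6a6, Slc38a2, Hspa4l, Hspa1a, Hspa1b and Slc14a2. They were chosen by symbol, and every array probe assigned to a symbol was taken. Of the 10 genes, 9 had a probe and Hspa1b had none, which gave 12 of the 55681 probes and 9 of the 20887 named genes on the array. All 12 probes were well above background in the sample channel on all 6 arrays, none was saturated, and none was lost to the filter on dim probes.

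The study compared collecting duct cells of newborn mice with and without Bdkrb2, the gene of the bradykinin B2 receptor, after high salt during gestation. Knockout (KO) pups were Hoxb7cre+; Bdkrb2 f/f; R26RtdTomato, and wild-type (WT) pups were Hoxb7cre+; R26RtdTomato; Bdkrb2+/+. Both groups therefore carried the Cre transgene and the tdTomato reporter, both were C57BL/6, and both were exposed to food with 5% sodium. GFP and dsRED positive cells were sorted at postnatal day 1, and 3 samples per group were hybridised in Cy5 against the RNA of WT replicate 1 in Cy3. The Hoxb7 promoter drives Cre in the ureteric bud and the collecting duct that grows from it, so deletion is aimed at that lineage. Where deletion took place was not measured on these arrays. The described mating is between floxed parents, which gives no Bdkrb2+/+ pups, so genotype and litter cannot be told apart. The number of animals behind a sample is not stated in the labels, and p-values measure only the spread between these samples. There was no group on normal salt, so each value below sets genotypes against each other under high salt.

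Values are log2 ratios of sample over WT replicate 1 after normalisation within each array. The array of WT replicate 1 sets that RNA against itself, and its ratios for the 12 probes lay between -0.19 and 0.39. The reference channel of the 12 probes holds the same RNA on every array. Scaled to each array's 75th percentile, it varied with an SD of 0.02 to 0.13 (log2) over the 6 arrays. Processed Cy5 intensities are not comparable between arrays without scaling, since their 75th percentile was 282 to 309 on WT arrays and 548 to 625 on KO arrays, and the reference channel moved in the same way. Spots well above background in Cy5 made up 49.8% to 52.7% of the spots on WT arrays and 56.6% to 57.5% on KO arrays. The probe of Bdkrb2 itself was not well above background on any of the 6 arrays, with ratios from -0.16 to 0.12, so it does not check the labels. KO replicate 1 stood apart from the other KO arrays: 4.20% of the 29811 probes tested lay at least 1 log2 unit from the mean of the other KO arrays, against 0.634% for KO replicate 2 and 0.419% for KO replicate 3.

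Cells of the renal medulla live in a fluid made hypertonic by salt and urea, and they balance it by storing small organic osmolytes that do not disturb proteins. The transcription factor NFAT5, also called TonEBP, binds tonicity-responsive enhancers (TonE) and drives genes for osmolyte transporters, for the enzyme that makes sorbitol, for chaperones and for a urea transporter. Sorbitol is made from glucose by aldose reductase, while betaine, myo-inositol, taurine and neutral amino acids are taken up through separate sodium-coupled carriers. Hsp70 chaperones, which heat shock factor also drives through heat shock elements (HSE), help cells survive high salt and urea.

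The sequence before the transcription start is shown for the betaine carrier and for the Hsp70 pair, because these windows hold the letters of the elements named above. Each is the 250 bases upstream of a RefSeq start on GRCm38.p6, written 5′ to 3′ in the sense of the gene. Capitals mark a TonE consensus match in Slc6a12 (chr6:121342324-121342573, plus strand). In Hspa1a (chr17:34972157-34972406, minus strand) and Hspa1b (chr17:34959239-34959488, minus strand) capitals mark the letters GAANNTTC of an HSE.
Slc6a12: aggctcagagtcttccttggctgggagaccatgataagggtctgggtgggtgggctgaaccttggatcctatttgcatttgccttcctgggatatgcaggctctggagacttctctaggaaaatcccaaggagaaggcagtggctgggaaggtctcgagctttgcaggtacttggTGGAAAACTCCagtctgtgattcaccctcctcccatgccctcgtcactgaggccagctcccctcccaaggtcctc
Hspa1a: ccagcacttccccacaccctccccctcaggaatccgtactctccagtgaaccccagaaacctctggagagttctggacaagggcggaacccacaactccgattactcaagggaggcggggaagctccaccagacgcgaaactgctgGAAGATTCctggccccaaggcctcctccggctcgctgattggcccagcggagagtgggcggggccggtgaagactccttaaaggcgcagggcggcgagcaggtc
Hspa1b: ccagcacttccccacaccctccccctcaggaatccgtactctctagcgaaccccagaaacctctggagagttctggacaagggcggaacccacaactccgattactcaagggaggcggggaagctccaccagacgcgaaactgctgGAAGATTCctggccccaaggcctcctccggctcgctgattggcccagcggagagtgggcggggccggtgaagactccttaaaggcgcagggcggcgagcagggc

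The Slc6a12 match starts with the TonE core TGGAAA, and its last base lies 65 bases before the start. RefSeq lists 5 starts for Slc6a12, and the windows of the others held neither the core nor the HSE letters. Windows were given for 7 of the 10 genes, and those of Nfat5, Slc5a3, Slc38a2 and Hspa4l held neither motif. Both strands were searched. Among 32851 windows of the same length, 18.6% held TGGAAA, 4.31% held the TonE consensus, which includes that core, and 6.69% held GAANNTTC. A match is a description of letters and not a measured site. The windows of Hspa1a and Hspa1b differ at 3 of 250 positions, counted from 1 at the 5′ end (C44T, T47C and T249G, Hspa1a base first), an identity of 98.8%. Their transcripts are near-identical copies in the mouse, so signal on the Hspa1a probe may include Hspa1b RNA.

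In KO cells 7 of the 12 probes were lower and 1 was higher (limma, adjusted p under 0.05 over all probes tested), which covers 5 genes lower and 1 higher. The lower genes were Akr1b3, Slc6a12, Slc5a3, Hspa4l and Slc14a2, and the higher gene was Hspa1a. Nfat5, Slc6a6 and Slc38a2 did not pass the test. The background was high: 25.4% of all probes tested were called changed, 14.2% lower and 11.1% higher. Over named genes, each by its brightest probe, 32.4% were called, 18.6% lower and 13.8% higher. The median difference was -0.61 over the 12 probes and 0.00 over all probes tested. The 2 groups had no overlapping values on 11 of the 12 probes, of which 3 were not called, against 45.2% of all probes tested. These are bulk samples, in which fewer cells of a type and less RNA per cell cannot be told apart. When each array's ratios were scaled to the same spread no probe of the array was called, which is described with the other processing choices.

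**Figure D1:**
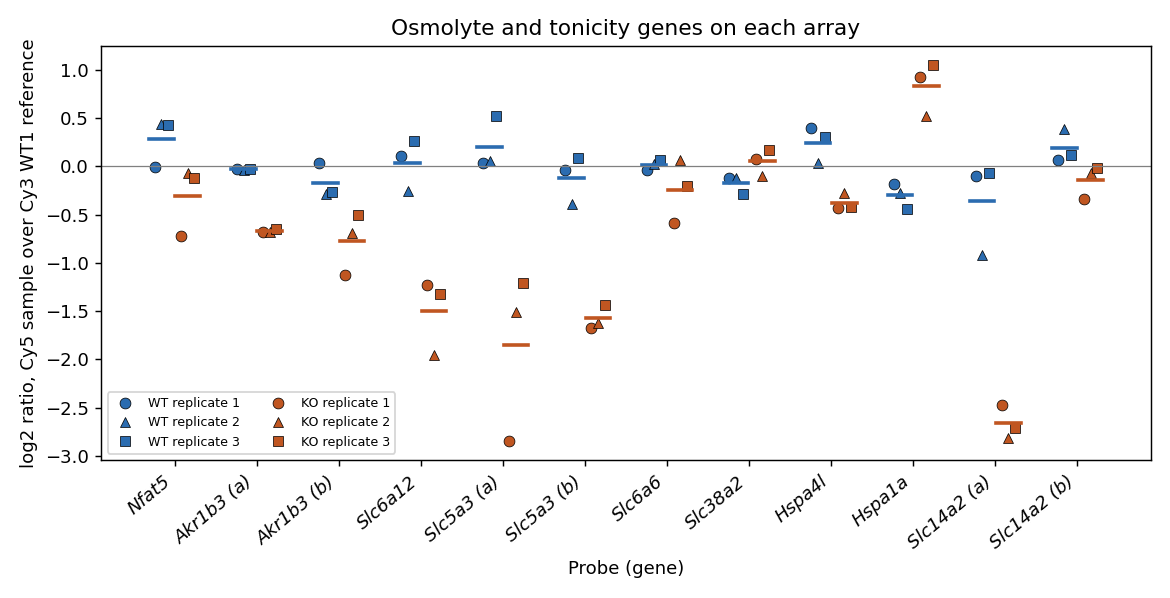
Log2 ratio of sample over WT replicate 1 on each of the 3 WT and 3 KO arrays for the 12 probes, with bars at the group means. Probes marked (a) and (b) belong to 1 gene. On every probe but that of Slc6a6 the KO arrays do not overlap the WT arrays. Hspa1a and Slc38a2 sit above the WT arrays and the other probes sit below. Slc6a12, both Slc5a3 probes and the first Slc14a2 probe have the lowest differences.

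Nfat5, the tonicity-responsive factor, gave log2 ratios of -0.01, 0.44 and 0.42 on the WT arrays and -0.72, -0.07 and -0.13 on the KO arrays. The groups did not overlap, but WT replicate 1 lay close to 2 of the KO arrays and KO replicate 1 was the lowest. The difference of KO minus WT was -0.59 ± 0.20 (SE, n = 3 per group), with a 95% interval of -1.06 to -0.12 and an adjusted p of 0.070 (limma). Leaving out each array in turn gave -0.74 to -0.38, with -0.38 without KO replicate 1, and median centring also gave -0.38. NFAT5 protein is also regulated by phosphorylation, localisation and transactivation, none of which an array measures.

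Akr1b3 encodes mouse aldose reductase, which turns glucose into sorbitol. Its first probe (A_52_P10041) gave -0.03 on each of the 3 WT arrays and -0.69, -0.69 and -0.65 on the KO arrays. Replicates were tight in both groups, and the gap between the groups was many times their spread. The difference was -0.64 ± 0.09 (adjusted p = 0.00200, limma), a 1.56-fold lower ratio in KO cells. The second probe (A_55_P2174953) gave 0.03, -0.29 and -0.27 on WT arrays and -1.13, -0.69 and -0.51 on KO arrays, a difference of -0.60 ± 0.17 (adjusted p = 0.0396, limma). Both probes were lower in KO cells. The first minus the second was -0.06, 0.25 and 0.23 on WT arrays and 0.44, 0.00 and -0.14 on KO arrays, and these groups overlapped. The call of the second probe was lost without WT replicate 1, 2 or 3 or KO replicate 2, with adjusted p values of 0.0277 to 0.133 over the 6 arrays left out in turn. It was also lost with the deposited ratios (adjusted p = 0.0594, limma). Median centring instead of loess moved the median of all probes from 0.00 to 0.22, and both probes then missed the threshold at -0.29 and -0.32.

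Slc6a12 encodes BGT1, the carrier that brings betaine into medullary cells. Processed Cy5 intensity of its probe was 247, 235 and 308 on WT arrays and 146, 82.2 and 121 on KO arrays, while the reference channel of the same spots read 246, 270 and 254 against 459, 533 and 460. Its log2 ratio was 0.10, -0.25 and 0.26 on WT arrays and -1.23, -1.95 and -1.32 on KO arrays. Every KO array was thus well below every WT array, with KO replicate 2 the lowest. The difference was -1.54 ± 0.21 (adjusted p = 0.00203, limma), a 2.90-fold lower ratio. The deposited ratios gave -2.12 and Cy5 alone gave -2.19, both larger and both called. Of the 29811 probes tested, 340 had a difference as low or lower.

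Slc5a3 encodes SMIT1, the sodium-coupled carrier of myo-inositol. Its first probe (A_51_P112762) is printed as 10 spots on each array, and gave ratios of 0.03, 0.05 and 0.51 in WT and -2.85, -1.51 and -1.21 in KO. The 7 to 10 spots kept on an array, 7 of them on that of WT replicate 1, differed by an SD of 0.06 to 0.13, so the low value of KO replicate 1 was shared by its 10 spots, which ranged from -2.91 to -2.69. The difference was -2.05 ± 0.39 (adjusted p = 0.00716, limma), a 4.15-fold lower ratio, and 114 of the 29811 probes were as low or lower. The second probe (A_52_P283055) gave -0.04, -0.39 and 0.08 in WT and -1.68, -1.62 and -1.43 in KO. The KO arrays were alike on this probe, and KO replicate 1 was not apart. Its difference was -1.46 ± 0.14 (adjusted p = 0.000555, limma), a 2.75-fold lower ratio.

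The gap between the first and the second Slc5a3 probe was 0.08, 0.44 and 0.43 on WT arrays and -1.17, 0.11 and 0.22 on KO arrays. The gap was below 0 on KO replicate 1 alone, and the groups overlapped. Its mean changed by -0.60 from WT to KO, and an exact permutation test (two-sided, p = 0.3) could not pass 0.05, since 0.1 is the smallest p that 3 against 3 allows. In the RefSeq annotation Slc5a3 overlaps Mrps6, a mitochondrial ribosomal protein gene. The probe of Mrps6 also fell, by 1.36 on the log2 scale (adjusted p = 0.000477, limma), with ratios of -0.15, -0.39 and 0.00 in WT and -1.64, -1.49 and -1.50 in KO. All 3 KO arrays were low and alike on Mrps6, as on the second Slc5a3 probe.

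**Figure D2:**
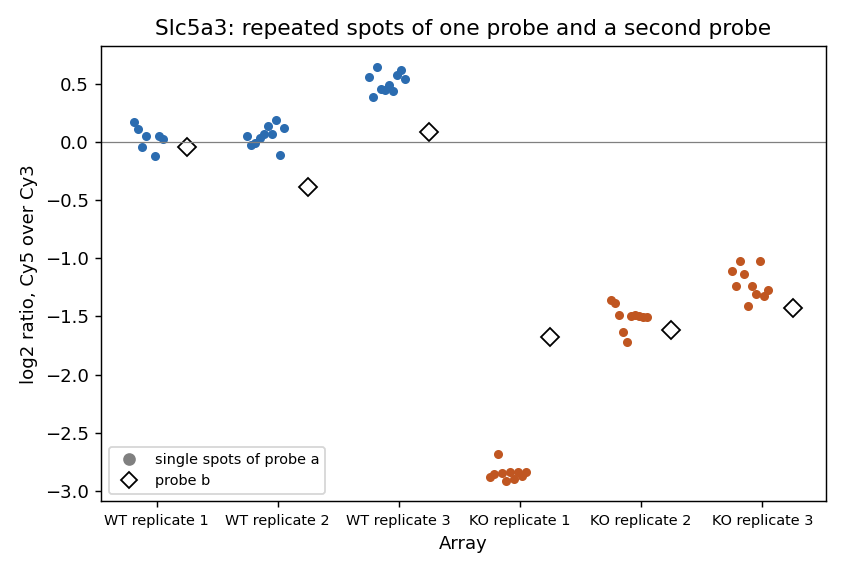
Log2 ratios of the single spots of the first Slc5a3 probe on each array (points) and of the second probe (marked separately). The 7 to 10 spots kept on an array cluster within an SD of 0.06 to 0.13, and KO replicate 1 is low on the first probe and level with the other KO arrays on the second.

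Slc6a6, the taurine carrier TauT, gave -0.04, 0.02 and 0.06 in WT and -0.59, 0.07 and -0.20 in KO. This was the probe whose groups overlapped, since KO replicate 2 lay above every WT array. The difference was -0.26 ± 0.16, with an interval of -0.64 to 0.12 (adjusted p = 0.286, limma), and its sign turned to 0.06 with median centring. It was -0.08 without KO replicate 1 and -0.41 without KO replicate 2, neither of them called. Slc38a2, the neutral amino acid carrier SNAT2, gave -0.12, -0.13 and -0.29 in WT and 0.08, -0.10 and 0.17 in KO. The KO arrays lay above the WT arrays by a narrow margin, and the difference of 0.23 ± 0.11 did not pass (interval -0.03 to 0.49, adjusted p = 0.176, limma). It was 0.57 with median centring, also not called. Of the 4 carriers, those of betaine and myo-inositol fell and those of taurine and neutral amino acids were not called. The difference between the carriers was not tested.

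The chaperones went in opposite directions. Hspa4l, which encodes the Hsp110-family protein Osp94 first described as an osmotic stress protein of the mouse kidney, gave 0.39, 0.03 and 0.30 in WT and -0.44, -0.28 and -0.43 in KO. The KO arrays were low and alike, and WT replicate 2 was the WT array nearest to them. The 0.39 of WT replicate 1 sets that RNA against itself, so it is not a difference in expression. It was the highest such ratio of the member probes. Without that array the difference was -0.55 and was still called (adjusted p = 0.0389, limma). The difference was -0.62 ± 0.12 (adjusted p = 0.00873, limma), a 1.54-fold lower ratio, and with median centring it was -0.38 and no longer called (adjusted p = 0.249).

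Hspa1a, an inducible Hsp70, was the 1 member that rose. Processed Cy5 intensity of its probe was 1639, 1580 and 1276 on WT arrays and 7982, 6055 and 7791 on KO arrays, while the reference channel read 1822, 1864 and 1727 against 3748, 3835 and 3294. The log2 ratio was -0.19, -0.27 and -0.44 on WT arrays and 0.92, 0.52 and 1.05 on KO arrays. Every KO array had a positive ratio and every WT array a negative one. The array of WT replicate 1 holds the reference RNA in both channels, so its -0.19 is not a difference in expression. The difference was 1.13 ± 0.15 (adjusted p = 0.00189, limma), a 2.19-fold higher ratio, and 523 of the 29811 probes were as high or higher. As written above, the probe may read Hspa1b RNA too, and Hspa1b had no probe of its own.

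Slc14a2 encodes the UT-A urea transporters, which in the collecting duct let urea pass into the inner medulla. Its first probe (A_52_P198885) gave -0.10, -0.92 and -0.07 in WT and -2.47, -2.81 and -2.70 in KO. WT replicate 2 was the low one of the WT arrays and still lay far above every KO array. The difference was -2.30 ± 0.23 (adjusted p = 0.000576, limma), a 4.93-fold lower ratio, and 66 of the 29811 probes were as low or lower. The deposited ratios gave -2.93 and Cy5 alone gave -2.84, both larger and both called. The second probe (A_55_P1964028), which the array design assigns to a different RefSeq transcript of the gene, gave 0.06, 0.39 and 0.12 in WT and -0.34, -0.07 and -0.02 in KO. Its difference of -0.33 ± 0.13 did not pass (interval -0.64 to -0.02, adjusted p = 0.109, limma), although the groups did not overlap, and it was -0.16 with median centring. The gap between the probes changed by -1.97 from WT to KO, and the groups did not overlap in it. Its exact permutation p of 0.1 is the smallest the design allows (0.3 after adjustment over the 3 genes with 2 probes), so the test could not pass 0.05. Processed Cy5 of the second probe was 92.4 to 154 on WT arrays and 121 to 162 on KO arrays, all well above background.

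**Figure D3:**
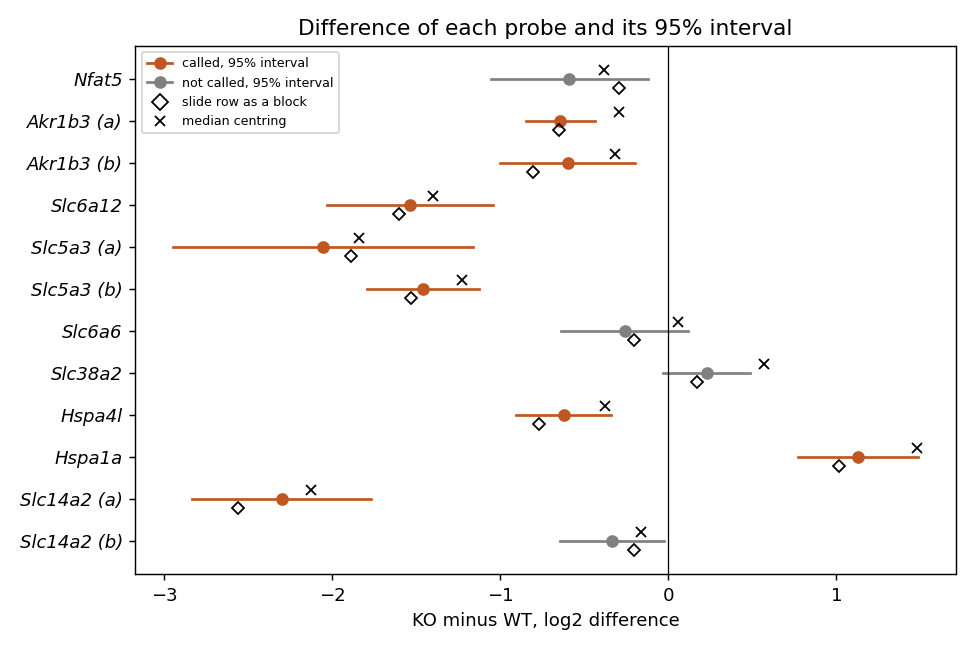
Difference of KO minus WT (log2 ratio) for the 12 probes with its 95% interval, the same with slide row as a block (diamonds) and with median centring (crosses). The first Slc14a2 probe, the first Slc5a3 probe and Slc6a12 lie lowest, at -2.30, -2.05 and -1.54, and Hspa1a lies highest at 1.13.

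The arrays were on 1 slide in 2 rows, and slide row 1 held the 3 KO arrays and WT replicate 1 while row 2 held the other WT arrays. With row as a block the comparison is that of the KO arrays with WT replicate 1 alone, which is also the reference hybridised to itself. The spread then comes from the KO arrays and the WT arrays of row 2, and WT replicate 1 is assumed to vary like them. The differences were then -0.65 for the first and -0.80 for the second Akr1b3 probe, -1.60 for Slc6a12, -1.89 and -1.53 for the Slc5a3 probes and -0.77 for Hspa4l. They were 1.01 for Hspa1a and -2.56 for the first Slc14a2 probe. The call was lost for the second Akr1b3 probe (adjusted p = 0.104, limma) and for the first Slc5a3 probe (adjusted p = 0.110, limma), and the other 6 called probes had adjusted p values of 0.0143 to 0.0485 (limma), which rest on that assumption. Nfat5 was at -0.29, Slc6a6 at -0.21, Slc38a2 at 0.17 and the second Slc14a2 probe at -0.21, none of them called.

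**Figure D4:**
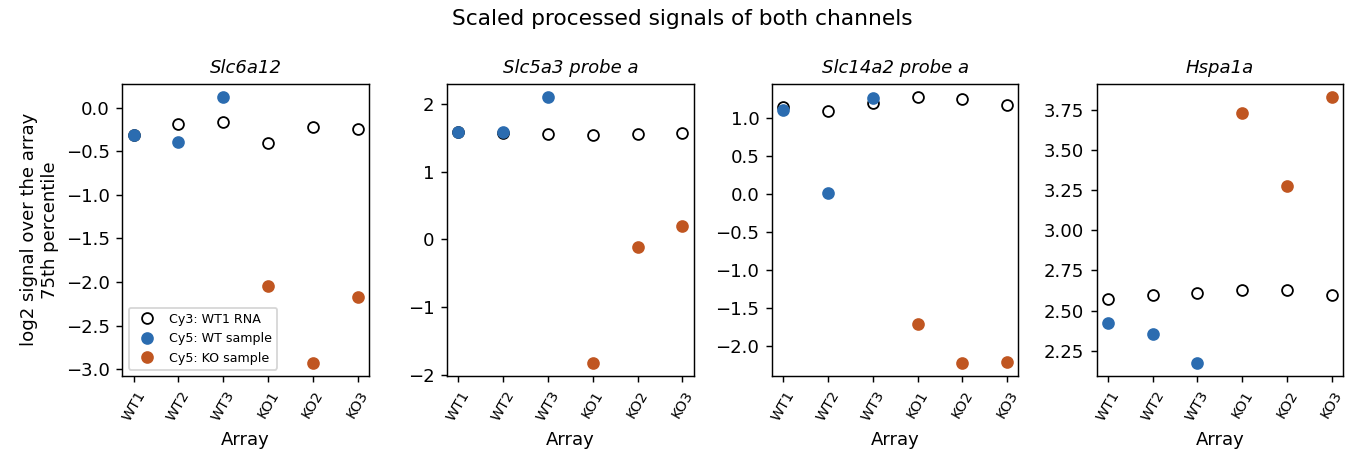
Sample channel (Cy5) and reference channel (Cy3) of 4 probes on each array, as log2 of processed intensity over the array's 75th percentile. The reference, the same RNA throughout, stays level, while Cy5 is lower on the KO arrays for Slc6a12, Slc5a3 and Slc14a2 and higher for Hspa1a.

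Other genes of the pathway were taken from lists, each gene by its brightest probe, and are read against 18.6% lower and 13.8% higher over all named genes. Of 17 genes that make or break down osmolytes, 7 fell and none rose, with a median difference of -0.29 against -0.02 over all named genes. With median centring 4 fell, and without KO replicate 1 or KO replicate 3 there was 1 higher. The lower count was 5 without WT replicate 1, WT replicate 3 or KO replicate 2, and 9 without KO replicate 1. Chka, a choline kinase, fell by 1.16, Cdo1, which oxidises cysteine on the way to taurine, fell by 1.57, and Impa2, an inositol monophosphatase, fell by 1.27. Chdh, which oxidises choline towards betaine, fell by 1.02. Sorbitol dehydrogenase, Sord, was at -0.19 ± 0.33 and was not called.

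Of 14 further osmolyte carriers and volume-regulated channel subunits tested, 2 rose and 3 fell (median -0.14). The lower genes were Lrrc8d at -0.78, Lrrc8c at -0.49, both subunits of the volume-regulated anion channel, and Ttyh1 at -0.52, whose other probe was at -0.57 and not called (adjusted p = 0.0606, limma). Dimmer probes of Lrrc8e, at -0.80, and Lrrc8a, at -0.46, were also called lower, while the brightest probes of both, at 0.01 and -0.56, were not. The higher ones were Slc2a13, a proton-coupled myo-inositol carrier, at 0.73 and the amino acid carrier Slc38a4 at 0.95. The lower count was 5 without KO replicate 1, 1 without WT replicate 1 or WT replicate 3, and 0 with median centring.

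Among 17 regulators of NFAT5 activity, 1 rose and 1 fell, and the median difference was -0.08. Mapk13, the p38 delta kinase, fell by 0.98, and Parp1, which binds NFAT5 and restrains it, rose by 0.81. Without KO replicate 1, 3 of these regulators were called higher. Of the 4 calcineurin-regulated NFAT relatives, Nfatc2 fell by 1.24 on its brightest probe and the others were not called. Another Nfatc2 probe was at -0.26 and was not called (adjusted p = 0.166, limma). Of 24 heat shock proteins and factors tested, 1 rose and 2 fell, with a median of 0.00. Cryab, the small heat shock protein alpha-B crystallin, fell by 1.32, Bag3, an Hsp70 co-chaperone, fell by 0.66, and Hspa12b, a distant Hsp70 relative, rose by 0.54. Hsf1, the heat shock factor, was at 0.13 ± 0.10, Hspa8, the constitutive Hsp70, at -0.15 ± 0.10 and Dnajb1 at -0.04 ± 0.10, none of them called. Whether the rise of Hspa1a went with other genes of the heat shock list was not tested. With median centring 3 genes of that list were called higher. Without WT replicate 2 or WT replicate 3 no gene of that list was called higher, and without WT replicate 1 there were 2. The lower count was 1 without WT replicate 3 and 4 without KO replicate 1.

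The genes of the urinary concentrating mechanism were all called, 12 of 13 lower and 1 higher, with a median of -2.04. Aqp2, the vasopressin-regulated water channel, fell by 1.67, Aqp3 by 1.91 and Aqp4 by 2.04, and Avpr2, the vasopressin receptor, fell by 2.09. Slc12a2, a sodium, potassium and chloride cotransporter, rose by 0.84. This list shares Aqp2, Aqp3, Aqp4 and Avpr2 with the principal cell markers below and Slc12a1 with those of the loop of Henle.

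**Figure D5:**
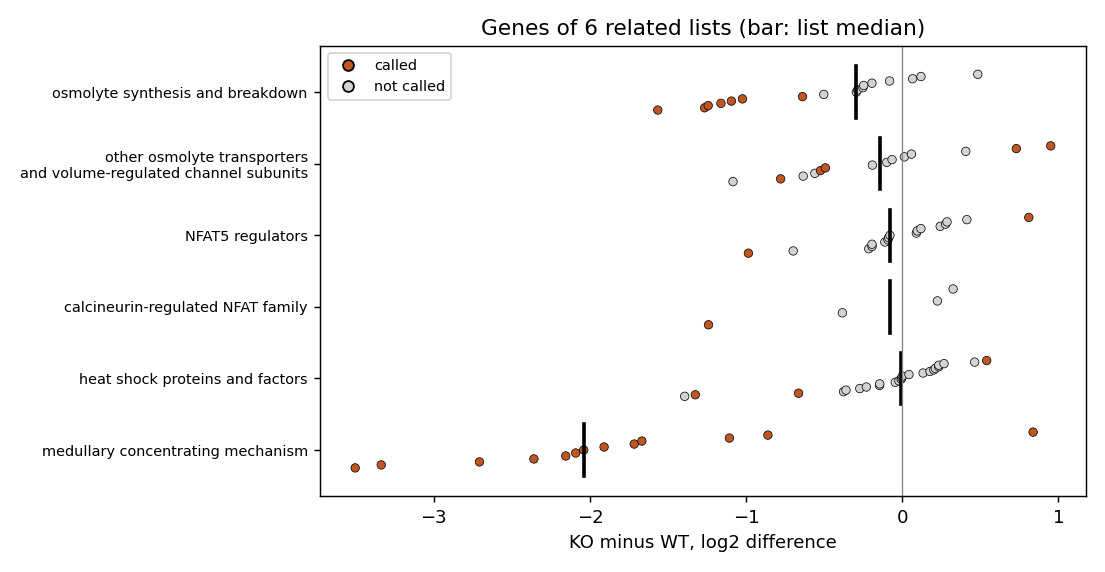
Difference of KO minus WT (log2 ratio) of every gene in 6 pathway lists, each gene by its brightest probe. The concentrating genes lie low, at a median of -2.04, while the heat shock and NFAT5 regulator lists centre near 0.

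Markers of several cell types moved with genotype beside these genes. Principal cell markers fell in 11 of 11 genes tested, with summed scaled Cy5 of 151 to 176 on WT arrays and 29.7 to 42.6 on KO arrays, and Kcne1 and Scnn1g were not well above background on any array. Intercalated cell markers fell in 12 of 12 (65.3 to 111 against 15.3 to 18.1), and loop of Henle and distal tubule markers in 12 of 12 (175 to 306 against 40.7 to 51.8). Endothelial markers fell in 9 of 10 (108 to 122 against 52.3 to 54.9), erythroid markers in 7 of 7 (266 to 670 against 86.7 to 117), and proximal tubule markers in 4 of 10 (119 to 227 against 105 to 122). Slc4a1 counts in both the intercalated and the erythroid list, and Miox in both the proximal tubule and the osmolyte synthesis list. The samples are labelled as collecting duct cells, but these sums show marker signal of other cell types on the WT arrays too. The values of the osmolyte genes therefore cannot be assigned to collecting duct cells alone.

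Other markers were higher in KO cells. Nephron progenitor markers rose in 8 of 9 genes tested (30.7 to 37.3 on WT arrays against 71.0 to 140 on KO arrays). Renal stroma markers rose in 9 of 11 (15.1 to 49.99 against 117 to 124), podocyte markers in 2 of 7 (24.3 to 56.7 against 83.7 to 102), and immune cell markers in 8 of 9 with 1 lower (10.1 to 15.2 against 19.8 to 31.2). Scaled Cy5 is processed intensity over the array's 75th percentile. The part of these shifts in the differences of the osmolyte genes was not tested.

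The named genes whose 6 ratios lay nearest to those of Nfat5, by root mean square difference over the 6 arrays among 14754 genes, were Soat1 at 0.07, Afdn and Srrm2 at 0.09, Hlcs at 0.09 and Ccser1 at 0.10. They were picked for nearness to the Nfat5 ratios, so their lowest value on KO replicate 1, from -0.59 to -0.83, follows from that choice. Among the osmolyte genes, KO replicate 1 lay below the mean of the other KO arrays by the most on the first Slc5a3 probe, at -1.49, then on Nfat5 at -0.63, the second Akr1b3 probe at -0.53 and Slc6a6 at -0.52. On all probes tested the median absolute distance was 0.21. The first Akr1b3 probe, at -0.02, and Slc38a2, at 0.04, were level between KO replicate 1 and the others.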

How the data were processed

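The deposited scanner files name Agilent Feature Extraction 10.7.3.1 in their headers, and version 6.1 is named in the submitters' processing notes. They hold median spot and background intensities, processed intensities that the program background-subtracted and dye-normalised, per the file headers, and a log10 ratio of processed Cy5 over Cy3. The log10 ratios in the deposited matrix lay within 0.00499 of those in the scanner files.

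Median intensities were background-corrected by normexp (offset 50) and converted to log2 ratios, then normalised by loess within each array with the 3671 control spots of 62976 at weight 0. Outlier spots were left out, which removed 463 to 679 spots per array, controls included, and spots of a probe were averaged. The 29811 probes well above background in Cy5 on at least 3 of 6 arrays were tested with limma 3.58.1 in R 4.3.3 (2-sided, 4 residual and 3.86 prior degrees of freedom), and p-values were adjusted by Benjamini-Hochberg over them, with a threshold of 0.05. The steps were tested on simulated data. The number of arrays limits the precision, and errors are moderated SE.

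Accessions were matched to a RefSeq table of GRCm38.p6, which named 27509 probes and showed which genes overlap. The promoter windows come from RefSeq on the same assembly. The members, lists and naming rule were chosen with earlier results of these data known. Every probe of a member is named, and from each pathway list up to 4 called genes with the smallest p and any called gene in a direction that at most 3 took. Sord, Hsf1, Hspa8, Dnajb1, Lrrc8a, Lrrc8e and the genes under other observations were named after their values were seen, and Mrps6 because it overlaps Slc5a3. Alternatives were other signals, centring, scaling, filters, weights, blocks and leaving out each array.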

Additional observations from a re-analysis of the deposited data

How the results depend on the processing

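Of 8 called probes of the osmolyte and tonicity genes, those of Slc6a12 and Hspa1a, the second of Slc5a3 and the first of Slc14a2 kept direction and call under every alternative but between-array scaling. No adjusted p passed 0.05 under that scaling, which brings every array to the same spread, the self-hybridised one included. The changed count over all probes was then 0, as were the lower and higher counts of the 12 probes. Why the calls were lost was not tested. Slide row as a block left 2192 probes changed, and leaving out each array left 3821 (without WT replicate 3) to 9482 (7568 with all arrays), with 4883 without WT replicate 1. Median centring gave 4 lower probes of the 12 and 77.4% of changed probes higher, against 43.9% with loess.

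With median centring 4 osmolyte synthesis genes were lower, 0 further carriers and channel subunits were lower, 2 NFAT5 regulators were higher, and 3 heat shock genes were higher and 1 lower. Leaving out each array in turn gave 0 to 1 osmolyte synthesis genes higher and 5 to 9 lower. It also gave 1 to 5 further carriers lower, 1 to 3 NFAT5 regulators higher, and 0 to 2 heat shock genes higher and 1 to 4 lower. The causes were not tested. Slc6a6 turned to 0.06 with median centring.

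The labels give same-numbered samples only a shared number. Their deviation correlations were 0.14, 0.07 and 0.19, each the highest for its own number, and those of unlike numbers were all negative. Deviations from a group mean cancel out within the group, so positive values for like numbers bring negative ones for unlike numbers. The negative values are therefore not separate support for a pairing. Whether same-numbered samples shared a batch is not stated in the labels and was not tested. With the replicate block Nfat5 was called at -0.59 (adjusted p = 0.0123, limma) and the second Akr1b3 probe was not (-0.60, adjusted p = 0.0682, limma). The number of arrays and signal over background limit what dim probes can show.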

Other observations

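KO replicate 1 was also apart from the other KO arrays on several list genes that did not pass the test, chosen after their values were seen. Hspb1, the small heat shock protein Hsp27, gave log2 ratios of -3.61 on KO replicate 1 and -0.44 and -0.27 on the other KO arrays, against -0.11 to 0.02 on the WT arrays. Akap13, an exchange factor needed to induce NFAT5 under hypertonic stress, gave -1.92 on that array and 0.27 and 0.04 on the others, by its brightest probe. Its dimmer probes had KO minus WT differences of 0.25 ± 0.11 and -0.62 ± 0.54, neither called, so the brightest probe does not stand for all of them. Lrrc8b, a subunit of the volume-regulated anion channel, gave -1.69 against -0.19 and 0.00. Gpcpd1, which cleaves glycerophosphocholine, gave -1.18 against 0.36 and 0.17. On the brightest probes of these genes KO replicate 1 was the lowest of the 6 arrays and the other KO arrays lay nearer to the WT arrays.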
